A study of Mus musculus with 6 samples.

Results

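Ide and Btaf1 are neighbours on mouse chromosome 19 whose UMI counts (unique molecular identifiers, each standing for 1 captured RNA molecule) were higher in the ΔTE cultures than in the WT cultures. They are described here with 5 further genes of the same stretch, Fgfbp3, Cpeb3, March5, Kif11 and Hhex, which makes 7 of the 28048 genes in the count tables. The 7 were picked by symbol and position with the ΔTE to WT ratios of Ide and Btaf1 already seen in these data, so those ratios are a description, and the flanking genes give their comparison. The study deposited 6 single-cell libraries, 1 per condition, made by sci-RNA-seq3, a method that labels the RNA of fixed cells or nuclei (nuclear RNA in the labels) by rounds of barcoding in wells. CD117-enriched bone marrow progenitors from C57BL/6 mice aged 2 to 4 months, males and females combined and several animals pooled per genotype, were grown on OP9-DL1 cells, a mouse stromal line carrying the Notch ligand DL1. CD44+ cells were sorted as DN1, which lacked CD25, as DN2a, which had CD25 but no Bcl11b reporter, or as DN2b, which had both, and were then returned to OP9-DL1 for 4 days with cytokines. Mice of both genotypes carried the YFP reporter at both Bcl11b alleles (Bcl11b YFP/YFP, WT), and ΔTE mice (Bcl11b YFPΔEnh/YFPΔEnh) in addition lacked the distal Bcl11b enhancer on both. Each start (DN1, DN2a, DN2b) therefore had 1 WT and 1 ΔTE library, and the pool of mice, the culture and the genotype cannot be told apart.

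Ide encodes the insulin-degrading enzyme, a zinc metallopeptidase that cuts insulin, amyloid beta and other short peptides. Btaf1 encodes an ATPase that strips the TATA-binding protein (TBP) from DNA. Fgfbp3 encodes a secreted carrier of fibroblast growth factors, Cpeb3 a protein that binds mRNAs and controls their translation, and March5 a ubiquitin ligase of the outer mitochondrial membrane. Kif11 encodes the kinesin motor that pushes spindle poles apart in mitosis, and Hhex a homeobox transcription factor used by early blood progenitors. A stretch of chromosome 19 that includes Ide is known to differ in copy number among mice of the C57BL/6J strain. Copy number was not measured in these data, and its part in the values was not tested.

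On GRCm38 (GENCODE M21 gene models, matched by gene identifier) the members ran along chromosome 19 in the order Fgfbp3, Btaf1, Cpeb3, March5, Ide, Kif11 and Hhex. Fgfbp3 lay at 36917550 to 36919615, Btaf1 at 36926079 to 37012752 and Cpeb3 at 37021291 to 37208601. March5 lay at 37207543 to 37222151, Ide at 37268743 to 37337852, Kif11 at 37376403 to 37421859 and Hhex at 37434810 to 37440731. The models of March5 and Cpeb3 overlapped on opposite strands, so UMIs from the shared bases cannot be assigned with certainty, since strand use in the counting is not given in the sources used here. Tnks2 was the nearest listed protein-coding gene before Fgfbp3, and Exoc6 the nearest after Hhex.

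The start-site windows of Ide, Btaf1 and March5 are shown because the first 2 genes were higher in ΔTE while March5, between them, was not. RefSeq windows on GRCm38.p6, 250 bases before to 50 after a start, matched all 7 members (March5 under its newer symbol Marchf5). They are printed along the gene's own strand at chr19:37334495-37334794 (minus) for Ide, chr19:36925829-36926128 (plus) for Btaf1 and chr19:37207290-37207589 (plus) for March5. Capitals mark matches, on either strand, to the GC box (GGGCGG), the CCAAT box (CCAAT), the TATA box (TATAAA), an ETS core (CCGGAAG), the NRF1 motif or a cyclic AMP response element (TGACGTCA).
Ide: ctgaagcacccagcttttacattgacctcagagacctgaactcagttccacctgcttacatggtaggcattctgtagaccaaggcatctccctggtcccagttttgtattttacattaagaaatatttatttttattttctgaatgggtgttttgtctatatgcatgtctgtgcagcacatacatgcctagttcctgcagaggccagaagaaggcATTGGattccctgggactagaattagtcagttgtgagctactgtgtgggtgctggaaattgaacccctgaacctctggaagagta
Btaf1: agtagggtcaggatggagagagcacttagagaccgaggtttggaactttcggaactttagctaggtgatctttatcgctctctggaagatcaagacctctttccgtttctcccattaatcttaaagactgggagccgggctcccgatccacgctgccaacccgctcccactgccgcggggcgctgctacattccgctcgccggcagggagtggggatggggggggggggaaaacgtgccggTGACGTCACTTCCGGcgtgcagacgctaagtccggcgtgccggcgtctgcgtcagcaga
March5: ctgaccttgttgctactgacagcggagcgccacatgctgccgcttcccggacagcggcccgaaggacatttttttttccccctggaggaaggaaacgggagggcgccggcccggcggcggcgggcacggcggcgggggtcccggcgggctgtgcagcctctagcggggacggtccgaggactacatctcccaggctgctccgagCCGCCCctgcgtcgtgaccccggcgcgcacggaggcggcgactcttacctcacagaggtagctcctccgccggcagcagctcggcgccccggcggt
The Ide window lay inside the GENCODE model, downstream of that model's own start, and held no CpG and 1 CCAAT match, which 37.4% of the 32851 windows in the table held. The Btaf1 window held 25 CpGs with an ETS core (8.86% of all windows) directly beside a cyclic AMP response element (1.79%). The March5 window held 37 CpGs and 1 GC box (35.7%), and overlapped the window of Cpeb3 on the other strand. The median window held 7 CpGs. No motif among those searched was found in both the Ide and the Btaf1 window, which says only that these letters were not in both.

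A filter on cells (200 or more genes, no more than 2000 UMIs, mitochondrial share up to 30%) kept 60671 cells, 3401 to 19489 per library, with 1717136 to 9048728 UMIs per library and medians of 386 to 485 UMIs per cell. No cell barcode was shared between libraries. The median mitochondrial share was 13.3% in the WT DN2a library and 20.9% to 23.9% in the other 5. All 10 blood markers were detected in every library, at a summed 4623 to 5341 counts per 1000000 UMIs (CPM). The 10 stromal markers summed to 272 to 2176 CPM and were lower in ΔTE at every start. Bcl11b, the gene whose enhancer was deleted, stood at 235, 534 and 856 CPM in the WT libraries of the DN1, DN2a and DN2b starts and at 89.3, 256 and 539 CPM in the ΔTE ones, which matched the labels. Each condition was a single library and the genes were picked with these ratios seen, so no test between genotypes is given, and every interval here is a 95% counting interval that covers counting error only. The 3 reverse-transcription wells of a library belong to 1 sample and are treated as technical splits, not replicates. Whether they came from 1 culture is not given in the sources used here. In sums over cells, fewer cells using a gene and less RNA per cell cannot be told apart.

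Ide, the peptidase gene, was higher in ΔTE at all 3 starts. Its level was 179 CPM (1071 UMIs) in the WT DN1 library, 178 CPM (1610 UMIs) in WT DN2a and 151 CPM (413 UMIs) in WT DN2b. In the ΔTE libraries it was 330.4 CPM (1949 UMIs) for DN1, 282 CPM (1785 UMIs) for DN2a and 283 CPM (486 UMIs) for DN2b. The 9 WT wells lay between 145 and 191 CPM and the 9 ΔTE wells between 272 and 354 CPM, so that the ranges did not overlap at any start (as for 8.69%, 2.83% and 8.02% of genes at DN1, DN2a and DN2b) or over the starts together. The ΔTE to WT ratio was 1.85-fold (1.72 to 1.99) from DN1, 1.59-fold (1.48 to 1.70) from DN2a and 1.87-fold (1.64 to 2.14) from DN2b. These are log2 ratios of 0.89 (0.78 to 1.00), 0.67 (0.57 to 0.76) and 0.90 (0.71 to 1.10). A ratio of 3 copies to 2 would be 1.5 and of 4 copies to 2 would be 2. The counting intervals of DN1 and DN2b lay above 1.5, that of DN2a held 1.5, and that of DN2b alone held 2. This reading depended on the scaling. With TMM scaling (explained below) the DN2a interval (log2 0.70 to 0.90) also lay above 1.5. The DN1 interval (log2 0.785 to 1.003) then held 2, as did that of DN2b.

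Btaf1, the TBP-removing ATPase gene, was also higher in ΔTE at each start. Its level was 206 CPM in WT DN1, 193 CPM in WT DN2a and 177 CPM in WT DN2b, against 342 CPM in ΔTE DN1, 304 CPM in ΔTE DN2a and 270.2 CPM in ΔTE DN2b. The 9 WT wells lay between 152 and 213 CPM and the 9 ΔTE wells between 227 and 359 CPM, again without overlap. The lowest ΔTE well, well 2 of DN2a at 227 CPM, stood apart from the other 2 wells of its library at 336 and 331 CPM. In that well 12.6% of cells had 3 or more collagen UMIs, against 2.60% and 1.58% in the other 2, and its median mitochondrial share was 16.6% against 22.4% and 24.5%; their part in the low value was not tested. The log2 ratio of Btaf1 was 0.73 (0.63 to 0.83) from DN1, 0.65 (0.56 to 0.75) from DN2a and 0.61 (0.43 to 0.80) from DN2b, or 1.66-fold, 1.57-fold and 1.53-fold. From DN2a it was 0.79 without well 2 and 0.51 without well 1.

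**Figure D1:**
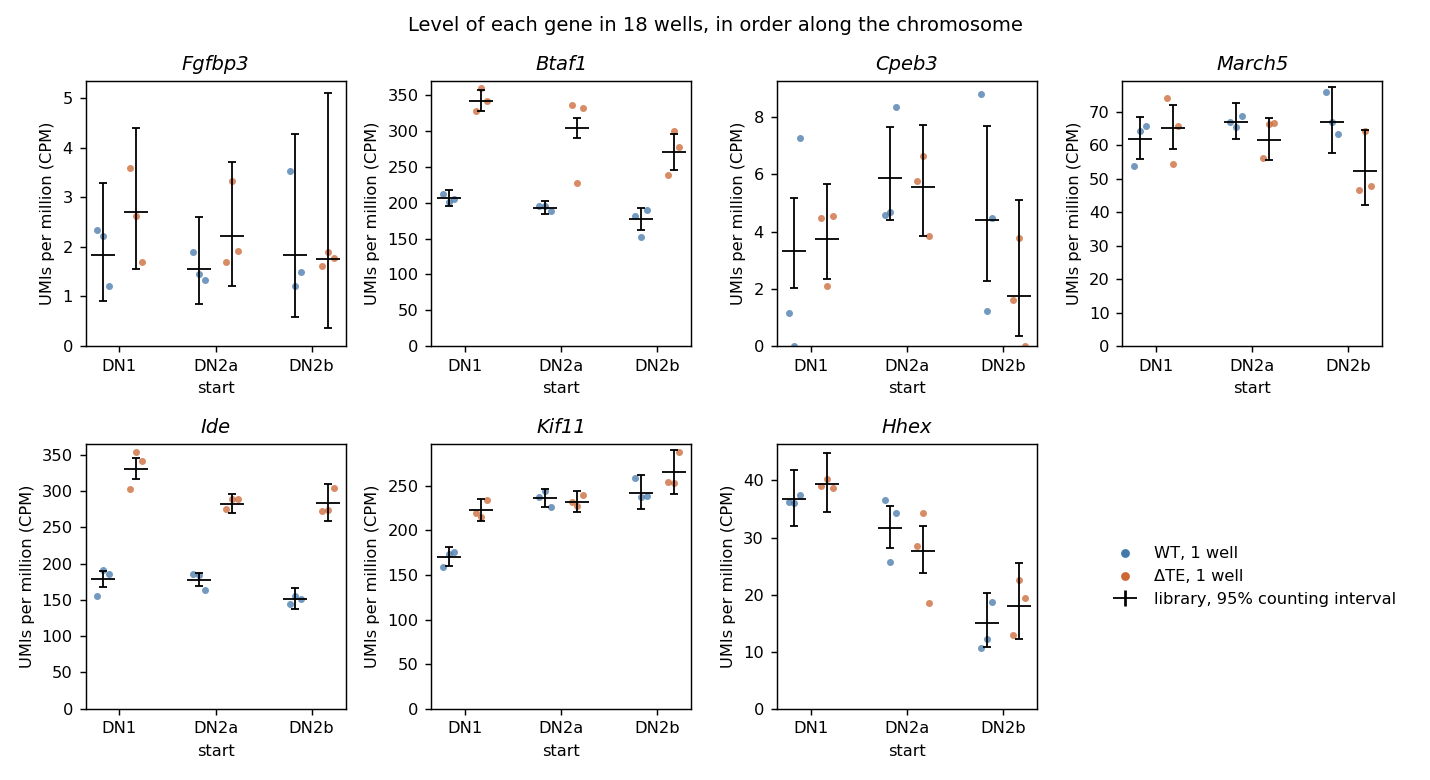
Level of each of the 7 genes (y axis, CPM) by start (x axis), with 1 point per reverse-transcription well (blue WT, orange ΔTE) and a black dash with its 95% counting interval for the whole library. For Ide the 9 ΔTE wells (272 to 354 CPM) and for Btaf1 the 9 ΔTE wells (227 to 359 CPM) lie above all WT wells of the same gene, while the wells of March5 overlap at each start.

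Against the other genes, the ratios of Ide and Btaf1, genes picked with those ratios seen, lay near the top of the list. Of the genes with at least 50 UMIs in the 2 libraries of a start, 10.0% were over 1.2-fold higher in ΔTE from DN1, 5.67% from DN2a and 17.0% from DN2b, and 11.3%, 28.7% and 19.6% were over 1.2-fold lower. By ratio Ide ranked 49 of 10155 genes from DN1, 160 of 10955 from DN2a and 116 of 8546 from DN2b, and Btaf1 ranked 91, 162 and 303. Both were over 1.2-fold higher at all 3 starts, as were 109 of 8515 genes, or 1.28%. Each ΔTE well lay above each WT well, over the starts together, for 11 of 8515 genes, or 0.129%. These were Btaf1, Cpne2, Cxcr5, Emid1, Fcer1g, H2-Q7, Ide, Nrgn, Olfm3, Rbpms and Zbtb16, of which only Ide and Btaf1 are on chromosome 19. The median gene had a log2 ratio of 0.00 from DN1, -0.14 from DN2a and -0.02 from DN2b, so that relative to it Ide stood at 0.89, 0.81 and 0.92 and Btaf1 at 0.73, 0.80 and 0.63. With TMM scaling, which centres the bulk of genes, 10.8% of genes were higher and 17.0% lower from DN2a, Ide stood at 0.80 and Btaf1 at 0.79.

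More ΔTE than WT cells held a UMI of either gene. Cells with at least 300 UMIs were thinned to 300 UMIs and the rest left out, which kept 14766 of 19489 cells in WT DN2a and 10123 of 11594 in ΔTE DN2a. An Ide UMI was then found in 5.20%, 5.11% and 4.37% of WT cells (DN1, DN2a, DN2b) and in 9.13%, 8.04% and 7.96% of ΔTE cells. Before thinning, over all kept cells, these were 8.59%, 7.32% and 7.33% in WT and 16.0%, 12.9% and 12.1% in ΔTE. The thinned shares of Btaf1 were 5.88%, 5.76% and 5.21% in WT and 9.67%, 8.61% and 7.66% in ΔTE. No kept cell held more than 7 Ide or 6 Btaf1 UMIs. No cell type that should lack either gene was defined, so no background share is given.

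For Ide and Btaf1 the starts of a genotype lay closer together than the genotypes did. Ide from DN2b stood below Ide from DN1, with a log2 difference of -0.24 (-0.41 to -0.08) for WT and -0.22 (-0.37 to -0.08) for ΔTE. The same log2 difference for Btaf1 came to -0.22 (-0.38 to -0.07) for WT and -0.34 (-0.49 to -0.19) for ΔTE. From DN2a against DN1 the intervals held 0 in WT, at -0.01 (-0.12 to 0.11) for Ide and -0.09 (-0.20 to 0.01) for Btaf1. In ΔTE both genes were lower from DN2a than from DN1, at -0.23 (-0.32 to -0.13) and -0.17 (-0.26 to -0.08).

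March5, whose start site lies between those of Btaf1 and Ide, showed no such difference. It had 61.9, 67.0 and 67.0 CPM in WT (DN1, DN2a, DN2b) and 65.3, 61.7 and 52.4 CPM in ΔTE. Its log2 ratios of 0.08 (-0.13 to 0.29), -0.12 (-0.31 to 0.07) and -0.35 (-0.73 to 0.02) had intervals that all held 0, and its wells overlapped at each start. Cpeb3, whose model lies between Btaf1 and March5, was too sparse to compare, with 20, 53 and 12 UMIs in WT and 22, 35 and 3 in ΔTE. Its log2 ratios were 0.16 (-0.78 to 1.11), -0.08 (-0.74 to 0.56) and -1.33 (-3.80 to 0.56). Fgfbp3, beside Btaf1, was sparser, with 11, 14 and 5 UMIs in WT and 16, 14 and 3 in ΔTE. Its log2 ratios of 0.56 (-0.63 to 1.82), 0.52 (-0.66 to 1.70) and -0.07 (-2.75 to 2.29) held 0 and also the ratios of Ide and Btaf1. In these sums a difference of that size was thus not detectable for it. In cells with 3 or more blood-marker UMIs, starts summed, it had 11 UMIs in WT and 23 in ΔTE (1.43, 0.33 to 2.61). In cells with no collagen UMI it had 22 and 29 (0.73, -0.12 to 1.59), an interval that held 0.

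Kif11, the next gene after Ide, was over 1.2-fold higher in ΔTE from DN1 and within 1.2-fold from DN2a and DN2b, a difference between starts that was not tested. From DN1 it had 170.2 CPM in WT (wells 159 to 175) and 223 CPM in ΔTE (wells 215 to 234), a log2 ratio of 0.39 (0.27 to 0.51). Each ΔTE well lay above each WT well there, as for 8.69% of genes. The wells overlapped from DN2a, with 236 CPM in WT and 232 CPM in ΔTE (-0.02, -0.12 to 0.07), and from DN2b, with 242 and 265 CPM (0.13, -0.05 to 0.30). The share of cells with 3 or more mitotic-marker UMIs was 23.8% in WT and 28.2% in ΔTE from DN1 and the 16 mitotic markers summed to 2967 and 3238 CPM; their part in the Kif11 value was not tested.

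Hhex, the last gene of the stretch, was lower from DN2b than from DN1 in both genotypes. It had 36.7, 31.7 and 15.0 CPM in WT and 39.3, 27.7 and 18.1 CPM in ΔTE, so that it was lowest from DN2b in both. From DN2b against DN1 the log2 difference of the WT libraries was -1.29 (-1.81 to -0.80), and that of the ΔTE libraries -1.12 (-1.71 to -0.58). Its ΔTE to WT log2 ratios were 0.10 (-0.17 to 0.37), -0.20 (-0.48 to 0.08) and 0.27 (-0.46 to 0.98). The 3 ΔTE wells of DN1 (38.6 to 40.3 CPM) lay just above the 3 WT wells (36.0 to 37.5 CPM), as for 8.69% of genes, while the counting interval of that ratio held 0.

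Counting 1 gene of the stretch per UMI of another gives a comparison that no scaling of the libraries can move. Ide had 2.89 UMIs per March5 UMI in WT and 5.06 in ΔTE from DN1, 2.66 and 4.58 from DN2a, and 2.26 and 5.40 from DN2b. The log2 differences were 0.81 (0.58 to 1.04), 0.78 (0.58 to 0.99) and 1.26 (0.85 to 1.67). Against Tnks2, the gene before Fgfbp3, Ide differed by 0.85, 0.84 and 0.97 and Btaf1 by 0.70, 0.83 and 0.68. Ide per Btaf1 UMI moved by 0.16 (0.01 to 0.30) from DN1, 0.01 (-0.12 to 0.15) from DN2a and 0.29 (0.03 to 0.56) from DN2b. Only the DN2a interval held 0, and the DN2b value was past 1.2-fold. The rise of Ide relative to Kif11 was 0.50 (0.34 to 0.66), 0.69 (0.55 to 0.83) and 0.78 (0.52 to 1.03).

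Beyond the members, no gene within 2 Mb of Ide with enough UMIs had a ratio as high as that of Btaf1 at the same start. The tables listed 38 further genes in that window, of which 13, 13 and 10 had at least 50 UMIs at the DN1, DN2a and DN2b starts. Of these 0, 0 and 3 were over 1.2-fold higher in ΔTE and 3, 5 and 3 over 1.2-fold lower, with median log2 ratios of -0.02, -0.19 and -0.04. The background shares over all genes were 10.0%, 5.67% and 17.0% higher and 11.3%, 28.7% and 19.6% lower. Tnks2, a poly-ADP-ribosyltransferase gene, had log2 ratios of 0.03, -0.18 and -0.07, and Exoc6, which encodes an exocyst subunit, had -0.28, -0.28 and -0.37. Farther towards the start of the chromosome, Rpp30, a subunit gene of ribonuclease P, stood at -0.02, 0.18 and 0.45, the polycomb gene Pcgf5 at -0.12, -0.15 and -0.57, and Hectd2 at 0.17, 0.18 and 0.47. On the other side, the cell division gene Cep55 stood at -0.02, -0.40 and -0.02, Fra10ac1 at 0.04, -0.16 and 0.31, Noc3l at -0.05, -0.20 and -0.07, and the chromatin remodeller gene Hells at 0.04, -0.19 and -0.02. Myof, a membrane repair gene, was lower at each start (-1.05, -1.13 and -1.22). The summed stromal markers were lower in the same libraries (477 and 272 CPM from DN1, 2176 and 1363 from DN2a, 759 and 368 from DN2b, WT first), and their part in the Myof value was not tested. Over the 367, 380 and 309 other genes of chromosome 19 with enough UMIs the median log2 ratio was -0.01, -0.16 and 0.00, close to that of all genes.

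**Figure D2:**
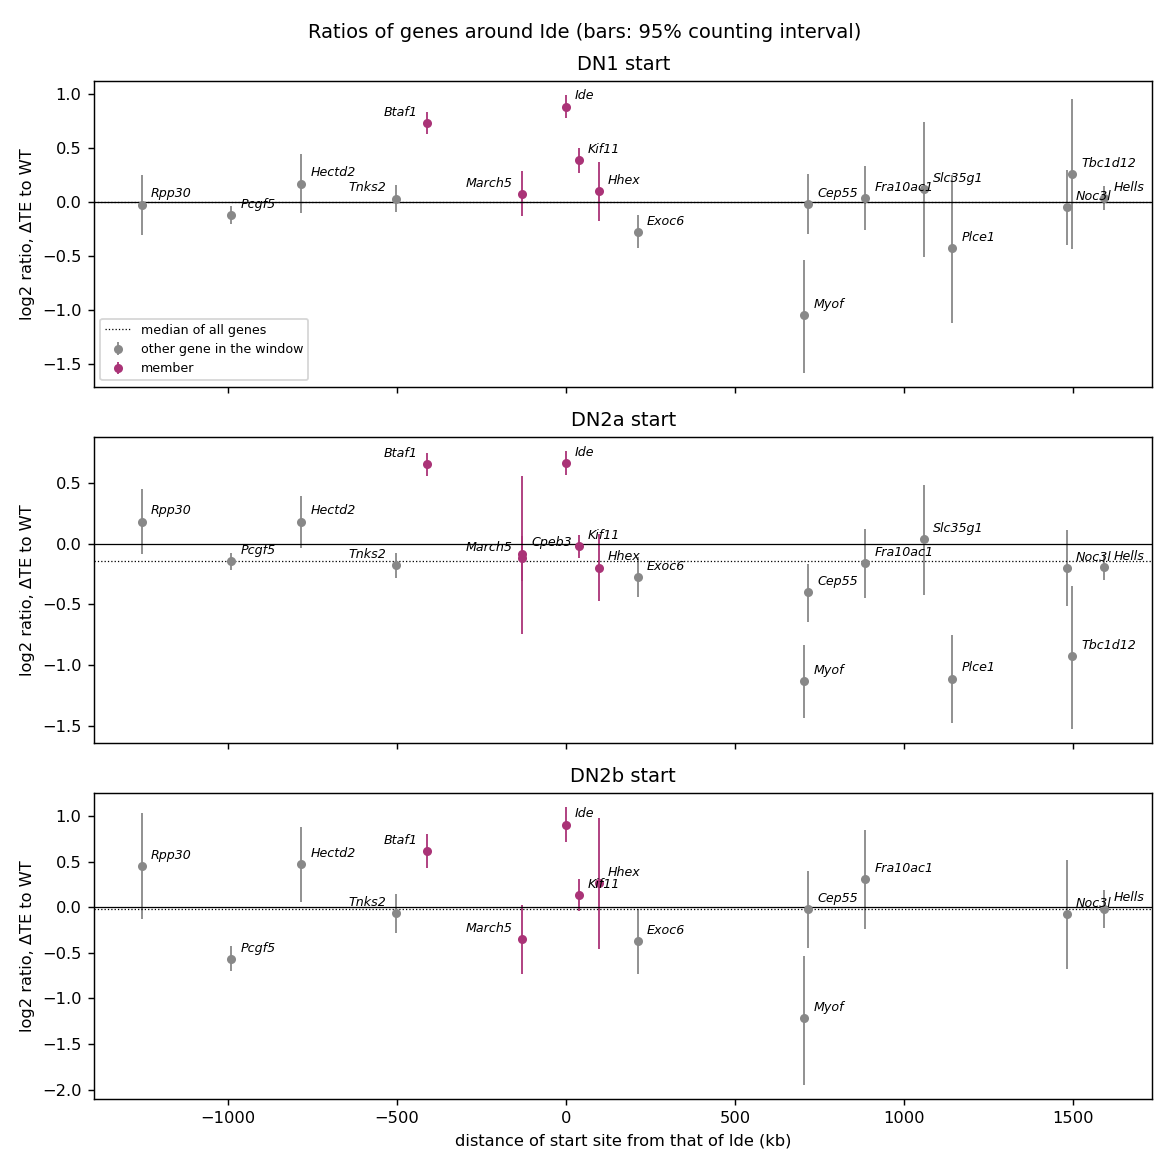
ΔTE to WT log2 ratio (y axis) of genes with at least 50 UMIs against the distance of their start site from that of Ide (x axis, kb), 1 panel per start, with members in purple, other genes in grey, 95% counting intervals as bars and the median of all genes as a dotted line. Ide and Btaf1 stand at 0.61 to 0.90 in each panel, with March5 between them at 0.08 to -0.35 and the flanking genes Tnks2 at 0.03 to -0.18 and Exoc6 at -0.28 to -0.37.

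Ide and Btaf1 were compared in classes of cells cut by marker UMIs (3 or more UMIs on a list), which are ranges of a score and may share cells. Cells at the cut were common (365 of the 615 T-lineage-marker cells of WT DN2a had exactly 3 UMIs), and the counts of the 3 starts were summed per genotype, so the mix of starts differed between genotypes. In T-lineage-marker cells (1115 WT and 509 ΔTE) Ide had 152 CPM in WT and 300.4 CPM in ΔTE, a log2 ratio of 0.98 (0.59 to 1.38), and Btaf1 had the ratio 0.98 (0.60 to 1.36). In cells with innate lymphoid and NK markers (1135 and 2135) the ratio of Ide was 0.78 (0.50 to 1.06) and that of Btaf1 0.73 (0.46 to 1.01). Cells with multipotent-progenitor markers (505 and 362) gave 1.15 (0.68 to 1.64) for Ide and 0.69 (0.30 to 1.09) for Btaf1, and mitotic-marker cells 0.83 (0.72 to 0.94) and 0.72 (0.62 to 0.83). With starts summed, both genes were thus higher in ΔTE in each of these 4 classes. By start the ratios were also above 0, except in multipotent-marker cells from DN2b, where ΔTE had 15 cells. There Ide stood at -0.45 (-5.98 to 2.59) and Btaf1 at -0.57 (-3.76 to 1.57). In cells with innate lymphoid and NK markers from DN2b, Btaf1 stood at 0.06 (-0.59 to 0.75). The myeloid class (207 and 146 cells) had 16 and 19 Ide UMIs, and its ratios of 0.51 (-0.52 to 1.57) for Ide and 0.44 (-0.30 to 1.19) for Btaf1 held 0. The interval of March5 held 0 in each of these classes.

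The feeder cells came from the same line in every culture, and the genotype of the mice does not apply to them. They were sought mainly as cells with collagen UMIs. Cells with 3 or more UMIs on the 44 collagen genes numbered 233, 1722 and 153 in WT (DN1, DN2a, DN2b) and 157, 662 and 47 in ΔTE. Their 10 stromal markers summed to 15462 CPM in WT and 15036 CPM in ΔTE, against 54.4 and 43.3 CPM in cells with no collagen UMI. Blood RNA was present in them too. The 10 blood markers summed to 1651 and 1405 CPM, against 5566 and 4845 CPM in cells with no collagen UMI, with 0 of 10 markers at 0, and Ptprc, which encodes the blood cell antigen CD45, stood at 157 and 141 CPM against 694 and 638.

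In the collagen cells Ide had 152 UMIs (106 CPM, 90.1 to 125) in WT and 90 UMIs (146 CPM, 117 to 180) in ΔTE, starts summed. The log2 ratio was 0.46 (0.07 to 0.84), against 0.79 (0.72 to 0.86) in cells with no collagen UMI, and the difference of -0.33 (-0.71 to 0.05) held 0. Btaf1 had 158 and 77 UMIs, a log2 ratio of 0.18 (-0.24 to 0.58) against 0.68 (0.61 to 0.75), and the difference of -0.50 (-0.90 to -0.11) did not hold 0. By start the Ide ratio was 0.59 (-0.34 to 1.51), 0.41 (-0.05 to 0.86) and 0.31 (-1.76 to 2.01), each interval holding 0. The Btaf1 ratio was 0.97 (0.08 to 1.88) from DN1, -0.07 (-0.57 to 0.41) from DN2a and -1.31 (-6.75 to 1.51) from DN2b, where ΔTE had 1 UMI. Both values rested on well 2 of ΔTE DN2a, which held 490 of the 866 ΔTE collagen cells. Without it the summed ratio was 0.82 (0.34 to 1.28) for Ide and 0.68 (0.19 to 1.15) for Btaf1. The differences from cells with no collagen UMI were then 0.05 (-0.41 to 0.51) and -0.03 (-0.50 to 0.44), so the lower ratios in collagen cells were not seen without that well. The interval of the Ide ratio also reached 0 without well 1 (0.40, -0.01 to 0.81) or well 2 (0.38, -0.03 to 0.80) of WT DN2a, without well 1 of ΔTE DN2a (0.36, -0.07 to 0.78) and without well 3 of ΔTE DN1 (0.39, -0.02 to 0.79). Cells with 3 or more stromal-marker UMIs, another cut for feeder cells that may overlap the collagen cells, numbered 2166 in WT and 898 in ΔTE. With starts summed, their log2 ratio was 0.31 (-0.09 to 0.70) for Ide and -0.05 (-0.48 to 0.38) for Btaf1. Both of these intervals held 0. No value without well 2 of ΔTE DN2a is given for this cut.

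Among the collagen cells, 1029 in WT and 481 in ΔTE had no UMI on the 10 blood markers, a class added after the data were seen. Ide had 57 UMIs (106 CPM) in WT and 32 UMIs (112 CPM) in ΔTE there, a log2 ratio of 0.08 (-0.59 to 0.73). The difference from cells with no collagen UMI was -0.71 (-1.33 to -0.08) for Ide and -0.53 (-1.19 to 0.12) for Btaf1, whose ratio was 0.15 (-0.55 to 0.83). Without well 2 of ΔTE DN2a, 190 ΔTE cells with 14 Ide and 16 Btaf1 UMIs were left, the ratios were 0.22 (-0.74 to 1.08) and 0.57 (-0.34 to 1.40), and the differences of -0.56 (-1.40 to 0.29) and -0.14 (-0.96 to 0.67) held 0. March5 gave 0.12 (-0.63 to 0.85) in the same cells. Bcl11b still had 39 UMIs (72.6 CPM) in WT and 8 UMIs (28.1 CPM) in ΔTE in them, a log2 ratio of -1.37 (-2.68 to -0.25). At 57 and 32 UMIs the Ide interval ran from 0.66-fold to 1.66-fold, so it held both 1 and 1.5, and without that well the interval of the log2 ratio also held 1.00, a ratio of 2.

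**Figure D3:**
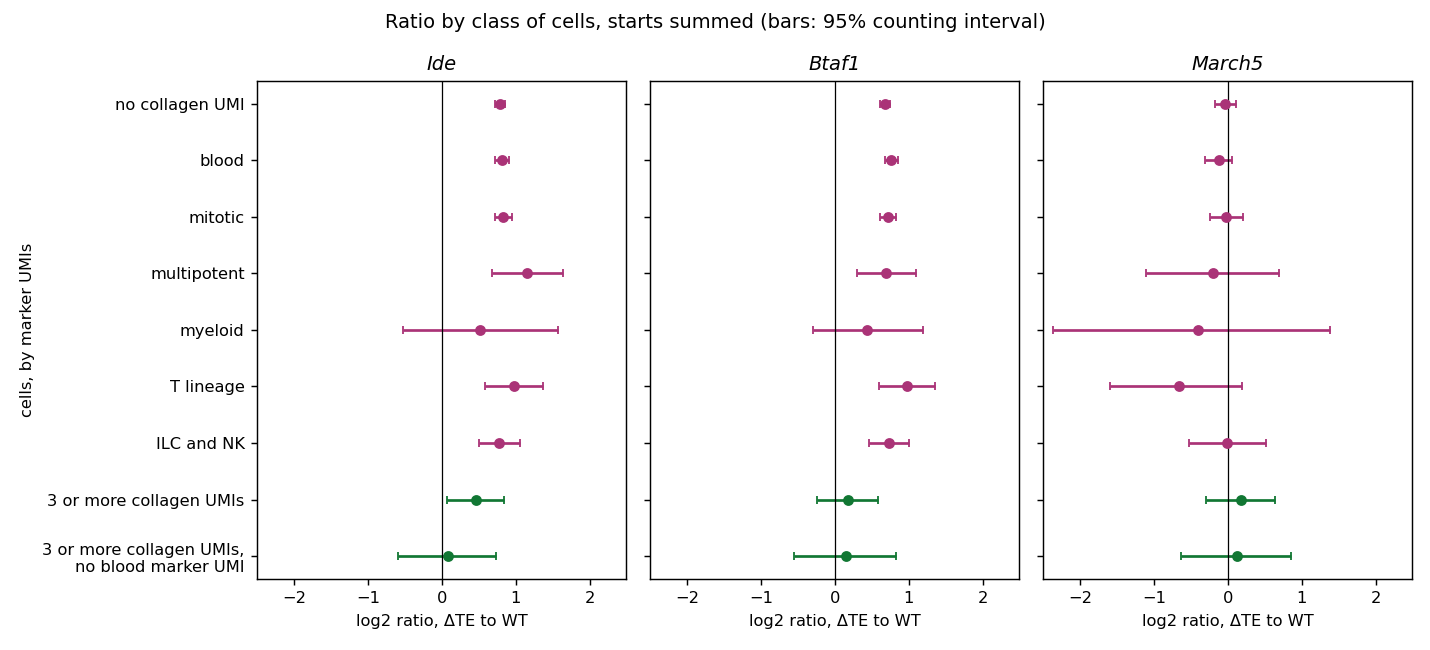
ΔTE to WT log2 ratio (x axis) of Ide, Btaf1 and March5 in classes of cells (rows), starts summed, with 95% counting intervals as bars; collagen cells are green and other classes purple. The ratio of Ide is 0.79 in cells with no collagen UMI, 0.46 in cells with 3 or more collagen UMIs and 0.08 in those of them with no blood marker UMI, but 0.82 and 0.22 in the last 2 without well 2 of ΔTE DN2a, while the interval of March5 holds 0 in every row.

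Apart from the genotype, the members differed in the cells that held them. Most Cpeb3 UMIs were in the collagen cells, which held 89 of its 145 UMIs (61.4%), at 43.5 CPM against 1.89 CPM in all other cells, a log2 difference of 4.53 (4.03 to 5.04). Hhex, Kif11, Ide and Btaf1 were lower in the collagen cells than outside them, at 7.33, 68.0, 118 and 115 CPM against 32.7, 233, 238 and 257 CPM. March5 was higher in them, at 86.5 against 62.3 CPM. Kif11 was concentrated in the mitotic-marker cells, at 300.3 CPM against 176 CPM outside (log2 difference 0.77, 0.71 to 0.84) with 50.6% of its UMIs, and higher there in each of the 6 libraries. Ide and Btaf1 did not differ between mitotic-marker cells and the rest beyond counting error (0.00, -0.07 to 0.06 and 0.03, -0.03 to 0.10). Hhex was higher in the multipotent-marker cells with libraries summed, at 67.7 CPM against 30.2 CPM (1.16, 0.73 to 1.57), from 51 UMIs. By library the log2 difference was 0.40 (-0.57 to 1.24), 0.77 (-0.69 to 1.91) and 2.26 (-0.08 to 3.92) in WT DN1, DN2a and DN2b, each interval holding 0, and 1.12 (0.38 to 1.78), 1.52 (0.18 to 2.59) and 4.18 (1.82 to 5.88, from 3 UMIs) in ΔTE, none holding 0. In the T-lineage-marker cells Hhex had 19 UMIs, at 17.2 against 31.6 CPM with libraries summed (-0.88, -1.62 to -0.23). No single library had an interval that left out 0 there, and in ΔTE DN2a Hhex stood at 31.2 CPM in the class and 27.6 CPM outside. The summed values mix starts that differ in Hhex and in their share of each class, and the part of that mix was not tested.

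**Figure D4:**
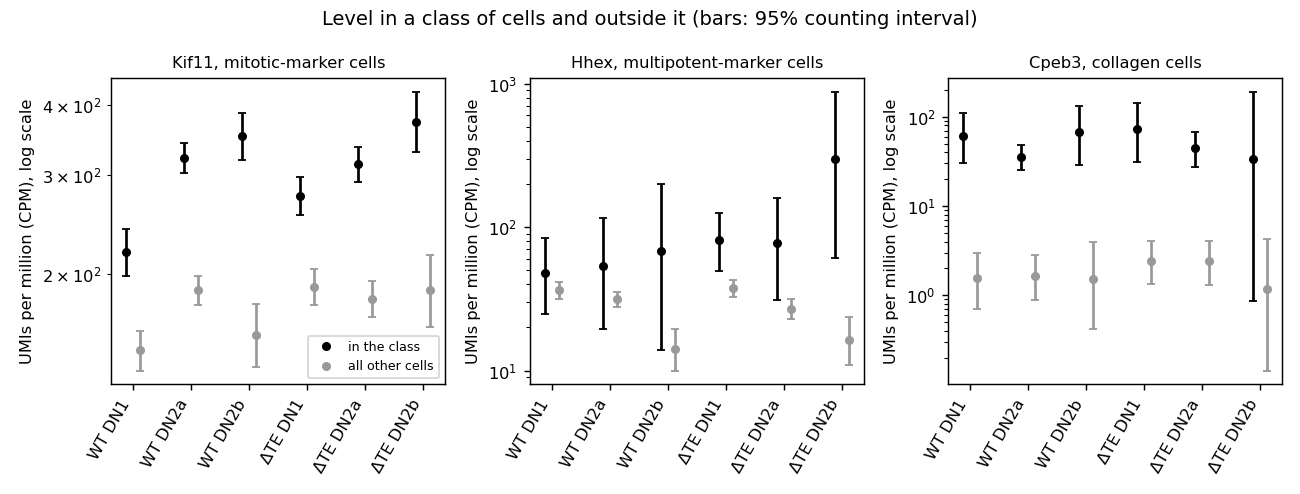
Level (y axis, CPM, log scale) of Kif11 in mitotic-marker cells, Hhex in multipotent-marker cells and Cpeb3 in collagen cells (black) and in all other cells (grey) of each library (x axis), with 95% counting intervals. Summed over libraries the levels in and outside the class are 300.3 and 176 CPM for Kif11, 67.7 and 30.2 CPM for Hhex and 43.5 and 1.89 CPM for Cpeb3.

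Lists of genes with roles related to those of Ide and Btaf1 had medians near that of all genes. Among peptidases of the Ide family or that cut the same peptides, 10 of the 11 in the count tables had enough UMIs. Of these 0, 0 and 2 were over 1.2-fold higher in ΔTE and 1, 2 and 1 lower (DN1, DN2a, DN2b). Their medians were -0.09, -0.15 and -0.05. Nrd1, the close relative nardilysin, had log2 ratios of 0.25, -0.14 and 0.01, and the mitochondrial peptidase gene Pitrm1 had -0.21, -0.25 and -0.20. Uqcrc1 and Uqcrc2, core subunits of respiratory complex III, had 0.02 and 0.05 from DN1. Of the 22 genes for TBP and its regulators, 21, 21 and 19 had enough UMIs, and 3, 1 and 6 were higher and 0, 5 and 2 lower, with medians of 0.07, -0.14 and 0.02. The TFIID subunit genes Taf3 and Taf1 stood at -0.06 and -0.05 from DN1, -0.17 and -0.29 from DN2a and -0.05 and -0.08 from DN2b, Drap1 at -0.25, -0.14 and -0.02, and Gtf2a1 at -0.05, -0.14 and -0.22. These counts lay near or below the background shares, apart from the 6 of 19 from DN2b (17.0% of all genes).

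Of the 3 other CPEB genes, Cpeb2 had 43 and 69 UMIs from DN1 (0.71, 0.14 to 1.29), 47 and 49 from DN2a (0.58, -0.03 to 1.19) and 11 and 16 from DN2b (1.21, 0.01 to 2.46), WT first. Cpeb4 had 0.19, -0.40 and -0.57. Cpeb1 had 7 and 5 UMIs from DN1, 33 and 35 from DN2a (0.60, -0.13 to 1.33) and 8 and 12 from DN2b. Of the 2, 3 and 1 with enough UMIs, 1, 2 and 0 were higher and 0, 1 and 1 lower. The shares over all genes were 10.0%, 5.67% and 17.0% higher and 11.3%, 28.7% and 19.6% lower. So few CPEB genes cannot be read against these shares. Among the 10 other membrane RING-CH ligases, the relatives of March5, 1, 0 and 1 were higher and 1, 3 and 1 lower of 6, 7 and 5 with enough UMIs, with medians of -0.01, -0.25 and 0.14. Over all genes 10.0%, 5.67% and 17.0% were higher and 11.3%, 28.7% and 19.6% lower, for these ligases and for the kinesins that follow. March7 (-0.17, -0.16 and -0.08) and March6 (0.08, -0.17 and 0.25) stayed within 1.2-fold, while March1 stood at -0.02 from DN1, was lower from DN2a (-0.99, -1.26 to -0.73) and had 28 and 10 UMIs from DN2b, WT first. March3 was lower from DN1 (-0.38, -0.58 to -0.18) and DN2b (-0.94, -1.70 to -0.22) and stood at -0.25 (-0.48 to -0.02) from DN2a. All 12 mitotic kinesins had enough UMIs, and 1, 0 and 1 were higher and 0, 1 and 1 lower, with medians of 0.13, -0.08 and -0.03. From DN1, where Kif11 stood at 0.39, Kif15 stood at 0.02, Cenpe at 0.15, Kif23 at 0.09 and Kif20b at 0.14. Among the 12 homeobox and partner factors of early progenitors, the company of Hhex, 0, 1 and 0 were higher and 4, 4 and 4 lower of 10, 9 and 5, with medians of -0.11, -0.17 and -0.72, where 11.3%, 28.7% and 19.6% of all genes were lower. Meis1 was lower at each start (-0.51, -0.84 and -1.17), whereas Bcl11a stood at -0.08, 0.02 and -0.03, Lyl1 at -0.13, -0.10 and -0.46 and Spi1 at -0.09, -0.40 and -0.72. The summed multipotent markers, which hold Meis1, Bcl11a and Lyl1, were 874 and 794 CPM from DN1, 591 and 503 from DN2a and 460.1 and 385 from DN2b, WT first.

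The gene whose levels over the 6 libraries were most like those of Ide was its neighbour Btaf1. Both genes were picked with their ratios in these libraries seen, so this place is a description and no separate evidence. Likeness was the root mean square difference of log2 CPM, each gene centred on its own mean, over 5943 genes with at least 50 UMIs in every library, and a gene of equal level in all libraries would stand at 0.42. Btaf1 stood at 0.10, Zbtb16 (a transcription factor of innate lymphocytes) at 0.17, Klhdc2 (a ubiquitin ligase adaptor) at 0.19, Eif2s3y (a translation factor gene on the Y chromosome) at 0.20 and Slc2a3 (a glucose transporter) at 0.20. Zbtb16 had 266, 239 and 199 CPM in WT and 391, 485 and 419 CPM in ΔTE, so its ratio was larger from DN2a and DN2b (1.02 and 1.07) than from DN1 (0.56). Eif2s3y had 27.5, 29.4 and 27.1 CPM in WT and 42.9, 40.3 and 33.8 CPM in ΔTE. The pools combined the sexes and their proportions are not given in the sources used here.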

How the data were processed

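UMI counts were measured by sci-RNA-seq3 in 6 libraries, 1 per genotype and start. The authors deposited whole-number UMI counts per gene and cell barcode, with gene and barcode lists. The submitters' processing notes name the build mm9, while the gene identifiers are Ensembl ones, of which 27924 of 28048 matched GENCODE M21 (GRCm38); the aligner and counter are not given in the sources used here. The study's own cell limits (200 genes as the minimum, 2000 UMIs and 30% mitochondrial UMIs as maxima) were applied, and no doublet caller was run. The 60671 cells kept were fewer than the study reported, so its cell set was not reproduced. Libraries held 8007395 to 14555100 UMIs before the filter. Counts were summed per library and reverse-transcription well and divided by all kept UMIs (CPM). CPM carry exact Poisson intervals, ratios exact conditional binomial ones, and shares Clopper-Pearson ones; within-stretch ratios and differences of ratios carry normal intervals on the log counts. All are 95%. A gene was called past 1.2-fold, among genes with at least 50 UMIs in the 2 libraries of a start. Ratio code was tested on simulated data. Python 3.11.15 with scipy 1.17.1, and R 4.3.3 with edgeR 4.0.16 for TMM factors, were used. Alternatives covered scaling, cell filters, thinning, UMI minimum and each well.

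Named genes were the 7 members, Bcl11b, the genes within 2 Mb with at least 50 UMIs at every start, the 5 genes most like Ide, and up to 4 members of each role list with the most UMIs. The 11 genes whose wells did not overlap were named after their values were seen, as their number follows from the wells. The members and lists were chosen with earlier results of these data known.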

Additional observations from a re-analysis of the deposited data

Results flagged for a closer look

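The barcodes that the cell filter left out, which no comparison above uses, also held higher Ide and Btaf1 counts in ΔTE. Summed per library over 169712 to 191926 left-out barcodes, the log2 ratio of Ide was 0.86 (95% counting interval 0.74 to 0.97) from DN1, 0.30 (0.17 to 0.42) from DN2a and 0.89 (0.75 to 1.04) from DN2b. That of Btaf1 was 0.56 (0.45 to 0.68), 0.16 (0.05 to 0.28) and 0.52 (0.38 to 0.66). March5 in the same barcodes stood at 0.02 (-0.18 to 0.21), -0.39 (-0.61 to -0.18) and -0.38 (-0.61 to -0.14). Fgfbp3 had 12 and 13 UMIs there from DN1 (0.60, -0.65 to 1.86), WT first. It had 10 and 26 from DN2a (1.10, 0.00 to 2.32) and 2 and 16 from DN2b (2.83, 0.74 to 5.99). In the WT DN2a library 518 of the left-out barcodes had been over the mitochondrial limit, against 4240 in ΔTE DN2a. Within barcodes of under 200 genes the DN2a ratio was 0.54 for Ide and 0.32 for Btaf1, and within those over the mitochondrial limit 0.93 and 0.65. Within those over 2000 UMIs the Ide ratio was 1.40 (1.06 to 1.75) from DN1, -0.20 (-0.67 to 0.27) from DN2a and 0.24 (-0.26 to 0.74) from DN2b. That of Btaf1 was 0.89 (0.57 to 1.21), 0.11 (-0.31 to 0.54) and 0.10 (-0.34 to 0.54). In these deep barcodes the DN2a and DN2b intervals of both genes thus held 0. Cpeb3 stood at 24.6 to 42.8 CPM in them, against 43.5 CPM in the collagen cells and 1.89 CPM in all other kept cells. Hhex, at 7.33 CPM in the collagen cells, stood at 1.28 to 17.4 CPM in the deep barcodes, except for 47.2 CPM in WT DN2a. The part of feeder RNA in the ratios of the deep barcodes was not tested.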

How the results depend on the processing

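Over 32 other settings and 2 chosen after seeing the data, 528 of 603 values stayed within the counting interval of the reported value or, for counts and shares, within 1.5 times. The other 75 moved by more. No ratio whose reported counting interval left out 0 changed sign. Ide and Btaf1 stayed higher in ΔTE at each start under each alternative, at log2 0.48 to 1.62 for Ide and 0.42 to 1.52 for Btaf1. From DN2a, Ide stood at 0.80 with TMM scaling, 0.79 with totals without mitochondrial genes, 0.52 with no mitochondrial limit and 0.48 over all barcodes, and Btaf1 at 0.79, 0.78, 0.50 and 0.42. With at most 10% mitochondrial UMIs, Ide stood at 1.29 from DN1, 1.62 from DN2b and 1.06 in collagen cells (-0.88 to 2.53), and Btaf1 at 1.52 from DN1. Without 1 well at a time, Btaf1 from DN2a ran from 0.51 to 0.79 and in collagen cells from -0.03 to 0.68, and Ide in collagen cells from 0.36 to 0.82.

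The share of genes higher in ΔTE was 17.1% from DN1 and 15.0% from DN2a with at least 1 UMI per library, 34.9%, 27.5% and 35.3% at the 3 starts with at most 10% mitochondrial UMIs, 10.8%, 9.71%, 10.2% and 10.3% from DN2a (TMM, all barcodes, totals without mitochondrial genes, without well 1 of ΔTE), and 6.99% and 8.70% from DN2b (all barcodes, no mitochondrial limit). The share lower was 19.6% from DN1 with at least 1 UMI, 24.7% from DN1 and 36.2% from DN2b with at most 10% mitochondrial UMIs, and 17.0% and 17.5% from DN2a with TMM and with totals without mitochondrial genes. The number of neighbours higher ran from 0 to 2 from DN1, 0 to 3 from DN2a and 0 to 4 from DN2b, the values 1, 2, 3 and 0 arising under scaling, filters and left-out wells; the number lower ran from 0 to 4, 4 to 8 and 1 to 7, with 5, 6 and 7 from DN2b with a lower UMI minimum, with no mitochondrial limit and over all barcodes.

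The WT and ΔTE libraries of a start form a pair, but a fit of genotype with start as a block over the 6 libraries was not run, since the genes were picked with these ratios seen and the results come from no test. Cpeb3 and Fgfbp3 were limited by depth, at 3 to 53 UMIs a library, and collagen cells by their number, 47 in ΔTE DN2b. The causes were not tested.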
